A study of Mus musculus with 10 samples.

Results

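The genes described here build and load the class I molecules of the major histocompatibility complex (MHC), and were followed in the whole hippocampus in a study of meningeal lymphatic ablation by a light-activated drug. The 10 genes form a set that was chosen with earlier results of these data known. They are the class I heavy chains H2-K1, H2-D1 and H2-T23, their light chain B2m, and the peptide transporter genes Tap1 and Tap2. The others are the loading factor Tapbp, the immunoproteasome subunits Psmb8 and Psmb9, and the class I transactivator Nlrc5. All 10 were found among the 28871 genes of the counts table, and all 10 were among the 19093 genes that passed the filter on low counts and were tested. The samples came from wild type male C57BL/6J mice, 2 months old. Both groups received an injection into the cisterna magna and photoconversion with red light of 689 nm over the intact skull, with the procedure repeated after 2 weeks and the tissue taken 2 weeks later. The injection held Visudyne, the photosensitizer verteporfin, in 5 samples (3, 6, 9, 12 and 15) and vehicle in the other 5 (1, 4, 7, 10 and 13). The labels do not say whether each sample is 1 animal, so the p-values measure the spread between these samples. No value here shows whether the vessels were ablated.

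Class I molecules display peptides from inside the cell to CD8 T cells and NK cells. Proteins are cut by the proteasome, whose interferon-inducible form swaps in the subunits Psmb8, Psmb9 and Psmb10 for the constitutive Psmb5, Psmb6 and Psmb7. TAP1 and TAP2 pump the peptides into the endoplasmic reticulum, where tapasin, the product of Tapbp, holds the empty heavy chain and B2m next to the transporter. In the brain, class I is known from endothelium and microglia and, at lower levels, from neurons, where H2-K1, H2-D1 and the class I receptor PirB have been studied for their part in synapse refinement.

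Of the 10 genes, 8 lie in the MHC on chromosome 17 (mm10, GENCODE M21), all of them protein-coding. From the lowest coordinate on they are Tapbp (33915899 to 33929292, plus strand), H2-K1 (33996017 to 34000347, minus strand), Psmb9 (34181987 to 34187764, minus strand), Tap1 (34187553 to 34197225, plus strand), Psmb8 (34197721 to 34201454, plus strand), Tap2 (34203527 to 34216321, plus strand), H2-D1 (35262730 to 35267499, plus strand) and H2-T23 (36029773 to 36032855, minus strand). B2m spans 122147686 to 122153083 of chromosome 2 and Nlrc5 94434356 to 94527272 of chromosome 8, both on the plus strand. Psmb9 and Tap1 stand head to head, with RefSeq start sites 226 bases apart, so that 1 short stretch serves as the promoter of both. As annotated in GENCODE M21, the 2 genes overlap by 212 bases on opposite strands. Promoter windows of RefSeq (GRCm38.p6, 250 bases before and 50 after the start site) were given for 8 members; Tap2 and Nlrc5 had none. The windows of the classical heavy chains and B2m, and the shared stretch between Psmb9 and Tap1, are shown up to the start site. They run 5′ to 3′ on the strand of the named gene. The classical heavy chains, B2m and Tapbp make up the 4 pairs whose correlation passed by r below, though B2m with Tapbp did not pass. Capitals mark any of 4 letter patterns on either strand: GAAA, any 2 bases and GAAA (the core of the interferon-stimulated response element), GGGNNTTCC of kappa B sites, TGACG of the X2 box and ATTGG of the Y box.
H2-K1, chr17:34000348-34000597, minus strand: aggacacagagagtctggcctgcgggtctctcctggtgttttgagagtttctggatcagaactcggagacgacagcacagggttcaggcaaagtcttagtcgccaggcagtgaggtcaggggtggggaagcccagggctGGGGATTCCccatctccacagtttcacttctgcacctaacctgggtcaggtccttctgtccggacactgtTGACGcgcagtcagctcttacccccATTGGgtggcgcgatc
H2-D1, chr17:35262844-35263093, plus strand: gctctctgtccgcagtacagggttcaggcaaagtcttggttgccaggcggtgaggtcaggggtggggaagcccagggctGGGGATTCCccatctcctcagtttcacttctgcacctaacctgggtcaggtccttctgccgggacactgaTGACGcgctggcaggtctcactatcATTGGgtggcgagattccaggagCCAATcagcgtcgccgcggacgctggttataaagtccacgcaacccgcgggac
B2m, chr2:122147437-122147686, plus strand: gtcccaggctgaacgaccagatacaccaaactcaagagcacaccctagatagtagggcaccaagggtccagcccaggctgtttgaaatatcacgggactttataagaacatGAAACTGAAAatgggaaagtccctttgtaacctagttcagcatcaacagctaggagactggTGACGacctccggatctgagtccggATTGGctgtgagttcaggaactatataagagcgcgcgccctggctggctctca
Tap1, chr17:34187306-34187555, plus strand: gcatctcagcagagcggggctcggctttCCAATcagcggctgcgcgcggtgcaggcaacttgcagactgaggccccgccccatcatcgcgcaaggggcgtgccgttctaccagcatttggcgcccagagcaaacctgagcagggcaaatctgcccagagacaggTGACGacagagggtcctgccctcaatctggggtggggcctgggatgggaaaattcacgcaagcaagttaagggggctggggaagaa

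H2-K1 and H2-D1 carried the same 9 letters GGGGATTCC of the kappa B pattern, followed 70 bases on by TGACG and a further 25 bases on by ATTGG, in both windows. B2m held GAAACTGAAA, beginning 139 bases before its start site, and TGACG and ATTGG with the same step of 25 bases. Among the 32851 promoter windows of all genes, 0.0944% held TGACG and ATTGG at this step, a step that was looked for after it had been seen in these windows. The interferon pattern occurred in 2 of the 8 member windows (B2m and H2-T23) and in 3.44% of all windows, and the kappa B pattern in 2 (H2-D1 and H2-K1) and in 5.82%. TGACG occurred in 5 of the 8 and in 20.8% of all windows, ATTGG in 7 and in 37.4%. Psmb9 and Tap1 are both among these, though their windows share 275 bases and hold the same sites. The window of Tapbp, not shown, held ATTGG but none of the other patterns. In the stretch between Psmb9 and Tap1, TGACG and the reversed ATTGG stood 136 bases apart. These matches describe letters and do not show binding. Only exact letters were counted, so a window without a match may still hold a variant of the element.

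The samples held 51165271 to 68895223 estimated counts each. Levels are given as CPM, the counts scaled to the library total after TMM normalization, with mean ± SD over 5 samples a group. A positive log2 fold change means a higher level with Visudyne. The summed CPM of 12 hippocampal neuron markers was 3251 to 3687 in vehicle and 2997 to 3562 in Visudyne samples. Of the 12, 2 had a positive log2 fold change, against 51.1% of all tested genes, and the median was -0.07. None differed at an adjusted p under 0.05 in edgeR, against 0.021% of all tested genes. Of 15 T and NK cell markers in the table, 14 had a mean below 0.5 CPM and 8, among them Cd3e, Cd8b1 and Gzmb, were at 0 in at least 1 sample; their sum was 1.84 to 3.07 CPM without and 1.51 to 4.85 CPM with Visudyne.

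Set per kilobase of annotated exon, which allows levels of different genes to be compared, the members covered about 3 orders of magnitude. B2m stood highest at 48.8 ± 5.70 CPM per kilobase over the 10 samples, above 97% of the tested genes, whose median was 2.43. H2-D1 followed at 8.01 ± 1.14, then Tapbp at 4.84 ± 0.338 and H2-K1 at 4.77 ± 0.490, whose samples overlapped. Each classical heavy chain was thus far below its light chain. H2-T23, the heavy chain of the nonclassical molecule Qa-1, stood at 2.06 ± 0.270 and Tap2 at 1.46 ± 0.120. Psmb8 (0.550 ± 0.0445) and Tap1 (0.500 ± 0.0495) overlapped again. Psmb9 (0.186 ± 0.0309) and Nlrc5 (0.0517 ± 0.0308) came last, with Nlrc5 above 0.918% of the tested genes. Apart from the 2 overlapping pairs, the sample ranges of neighbours in this order did not touch.

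None of the 10 genes differed between Visudyne and vehicle hippocampi in edgeR's quasi-likelihood test over all genes, each with an adjusted p of 0.9999. Of all tested genes, 0.021% passed that test, 4 higher and 0 lower. None of the 10 passed at an unadjusted p under 0.05 either, against 1.7% of all genes (1.14% higher and 0.56% lower). Of the 10, 7 had a positive log2 fold change, where 51.1% of all genes did, and their median was 0.04 against 0.0022 for all genes. In no member did the 5 Visudyne samples lie entirely above or below the vehicle samples, which 0.319% and 0.115% of all genes did.

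**Figure D1:**
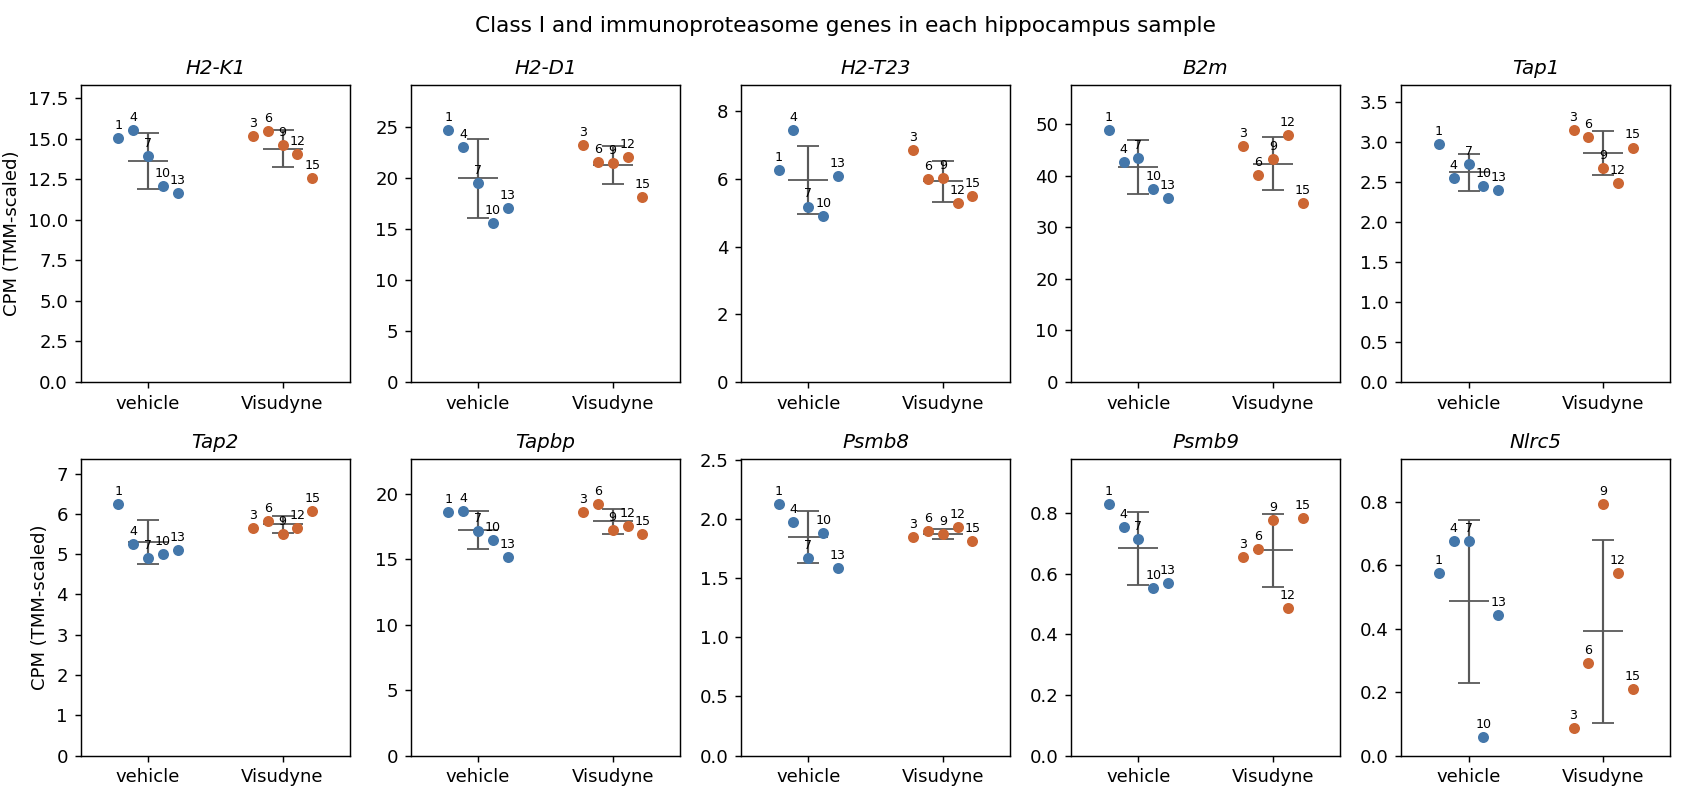
CPM (y axis, from 0) of the 10 genes in each vehicle (blue) and Visudyne (orange) sample, with sample numbers and the mean ± SD of 5 samples. The groups overlapped in every gene, and Nlrc5 ranged from 0.0593 to 0.793 CPM.

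H2-K1, one of the classical heavy chains of this strain, measured 15.1, 15.5, 13.9, 12.1 and 11.6 CPM in vehicle 1, 4, 7, 10 and 13. It measured 15.2, 15.5, 14.6, 14.0 and 12.6 CPM in Visudyne 3, 6, 9, 12 and 15. Vehicle 10 and 13 were the lowest samples, and all 5 Visudyne samples fell inside the vehicle range. The means were 13.6 ± 1.74 and 14.4 ± 1.15 CPM (log2 fold change 0.08, SE 0.09), and the 95% interval of the difference ran from -7.84% to 20.6%.

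H2-D1, the other classical heavy chain, spread more widely among the controls: 24.7, 23.1, 19.6, 15.6 and 17.1 CPM in vehicle 1, 4, 7, 10 and 13. The Visudyne samples gave 23.3, 21.6, 21.5, 22.1 and 18.2 CPM in the order 3, 6, 9, 12 and 15. The same vehicle samples, 1 and 4, were high and 10 and 13 low, and all Visudyne samples lay inside the vehicle range. The means of 20.003 ± 3.86 and 21.3 ± 1.90 CPM differed by a log2 fold change of 0.09 (SE 0.12; interval -10.8% to 27.3%).

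For H2-T23, whose product presents leader peptides of other class I chains to NK cell receptors, vehicle 1, 4, 7, 10 and 13 gave 6.26, 7.44, 5.18, 4.90 and 6.08 CPM. Visudyne 3, 6, 9, 12 and 15 gave 6.84, 6.01, 6.02, 5.28 and 5.49 CPM. Vehicle 4 was highest and vehicle 10 lowest, with all Visudyne samples between. The log2 fold change was -0.01 (SE 0.12; interval -16.8% to 18.3%).

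B2m, the most abundant member, measured 48.8, 42.6, 43.5, 37.4 and 35.7 CPM in vehicle 1, 4, 7, 10 and 13 and 45.7, 40.1, 43.2, 47.9 and 34.7 CPM in Visudyne 3, 6, 9, 12 and 15. Vehicle 1 was highest and Visudyne 15 lowest, just under vehicle 13. With at least 1894 counts per sample the means of 41.6 ± 5.22 and 42.3 ± 5.14 CPM were close (log2 fold change 0.02, SE 0.10), and the interval ran from -12.3% to 18.1%.

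Single heavy chain values are less certain than that of B2m, because class I genes resemble each other. Of the 31-base words in H2-K1 transcripts 22.8% also occur in other genes, most often H2-D1 (11.1%). The share was 26.7% for H2-D1 and 24.5% for H2-T23, but 0% for B2m, Psmb9 and Nlrc5, and at most 4.62% for Tap1, Tap2, Tapbp and Psmb8. The sum over 20 class I heavy chain genes does not depend on how reads were split among them. It can still depend on splits with genes outside it, such as H2-T-ps, where 12.4% of the H2-T23 words occur. The sum over the 20 genes was 68.7 ± 8.86 CPM without and 71.5 ± 3.68 CPM with Visudyne (a log2 difference of 0.06, SE 0.08; adjusted p = 0.9999 in edgeR), from 56.8 CPM in vehicle 10 to 80.3 CPM in vehicle 4. H2-K1 and H2-D1 made up 49.4% of its counts.

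Tap1 and Tap2, the 2 chains of the peptide transporter, had the largest positive log2 fold changes among the members. Tap1 measured 2.97, 2.55, 2.72, 2.45 and 2.39 CPM in vehicle 1, 4, 7, 10 and 13 and 3.14, 3.05, 2.67, 2.49 and 2.93 CPM in Visudyne 3, 6, 9, 12 and 15. Visudyne 3 and 6 exceeded every vehicle sample, and the other 3 did not. The log2 fold change was 0.13 (SE 0.11; interval -7.20% to 28.4%). Tap2 measured 6.25, 5.26, 4.91, 5.001 and 5.10 CPM in the vehicle and 5.65, 5.83, 5.50, 5.66 and 6.06 CPM in the Visudyne samples, in the same order. Here 4 vehicle samples lay below all Visudyne samples, and vehicle 1 lay above all of them. The log2 fold change was 0.11 (SE 0.08; interval -4.29% to 22.4%), and 0.18 when vehicle 1 was left out, still with no call.

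Tapbp gave 18.6, 18.7, 17.2, 16.5 and 15.2 CPM in vehicle 1, 4, 7, 10 and 13 and 18.6, 19.2, 17.2, 17.5 and 16.96 CPM in Visudyne 3, 6, 9, 12 and 15. The vehicle samples stood in the same order as for H2-K1, and only Visudyne 6 exceeded them all. Its log2 fold change of 0.06 (SE 0.07) had the narrowest interval of the 10, from -5.81% to 14.7%. In GENCODE M21 Tapbp overlaps Zbtb22 on the same strand, and 2.40% of its 31-base words occur there.

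The immunoproteasome subunits were sparse. Psmb8, the chymotrypsin-like subunit, measured 2.12, 1.97, 1.67, 1.88 and 1.58 CPM in vehicle 1, 4, 7, 10 and 13 and lay between 1.81 and 1.93 CPM in all 5 Visudyne samples. The vehicle samples therefore spanned more than the Visudyne samples on either side (log2 fold change 0.02, SE 0.12; interval -15.1% to 21.2%). Psmb9, whose promoter is shared with Tap1, measured 0.831, 0.754, 0.715, 0.553 and 0.570 CPM in the vehicle and 0.656, 0.683, 0.776, 0.487 and 0.784 CPM in the Visudyne samples, in the same order. Visudyne 12 was lowest with 27 counts, and the log2 fold change was -0.01 (SE 0.20; interval -26.8% to 33.8%). At 27 to 52 counts per sample the interval was wide, and a change within it could not be told from no change.

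Per kilobase of exon, Psmb8 made up 0.9997 ± 0.0671% of the sum of Psmb8 and Psmb5 in vehicle and 1.08 ± 0.0661% in Visudyne samples. Psmb9 made up 0.581 ± 0.0916% and 0.604 ± 0.148% of the sum with Psmb6. Psmb10, the third inducible subunit and no member of the set, took a far larger part of its pair with Psmb7, 17 ± 1.84% and 17.6 ± 1.09%. Psmb10 measured 7.53 ± 0.848 and 7.47 ± 0.714 CPM (a log2 difference of -0.01, SE 0.09; adjusted p = 0.9999 in edgeR). The shares overlapped between the groups in all 3 pairs, and no test was made of them. Exon length is the union over annotated isoforms, which lowers the values of genes with long rare isoforms.

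**Figure D2:**
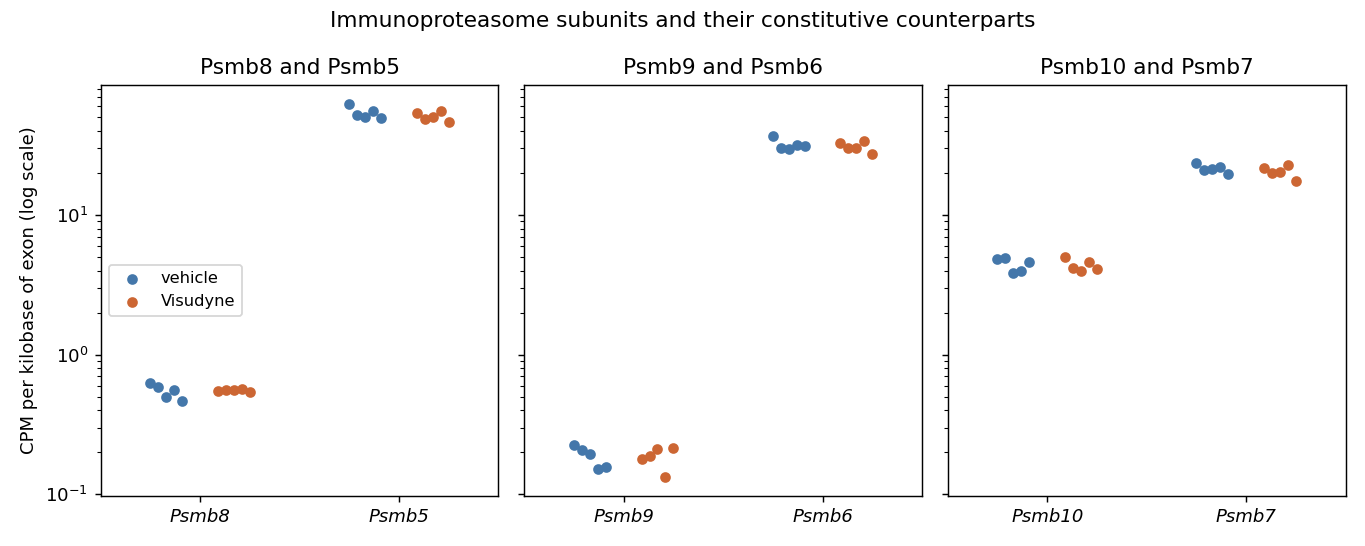
Level per kilobase of annotated exon (log scale) of each inducible proteasome subunit and its constitutive counterpart in the 10 samples, vehicle in blue and Visudyne in orange. Mean levels of Psmb5 and Psmb6 were 95.6 and 169 times those of Psmb8 and Psmb9, while Psmb7 was 4.79 times Psmb10.

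Nlrc5, which drives transcription of class I genes through the enhanceosome bound at their promoters, was the most variable member. It gave 0.575, 0.676, 0.675, 0.0593 and 0.444 CPM in vehicle 1, 4, 7, 10 and 13, or 36, 35, 34, 3 and 28 counts. The Visudyne samples 3, 6, 9, 12 and 15 gave 0.0864, 0.293, 0.793, 0.577 and 0.209 CPM, or 5, 21, 47, 32 and 12 counts. Low samples occurred in both groups, and the SD was 52.9% of the mean in vehicle and 73.5% in Visudyne samples. For the other members it was 2.38% to 19.3%. The log2 fold change of -0.31 had an SE of 0.58, and the interval ran from -66.5% to 93.2%. Leaving out 1 sample moved it from -0.06 (without Visudyne 3) to -0.74 (without Visudyne 9), with no call. A transcript of the other strand, 9330175E14Rik, overlaps Nlrc5 by 748 bases and had up to 110 counts; the use of strand in the counting is not given in the sources used here.

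**Figure D3:**
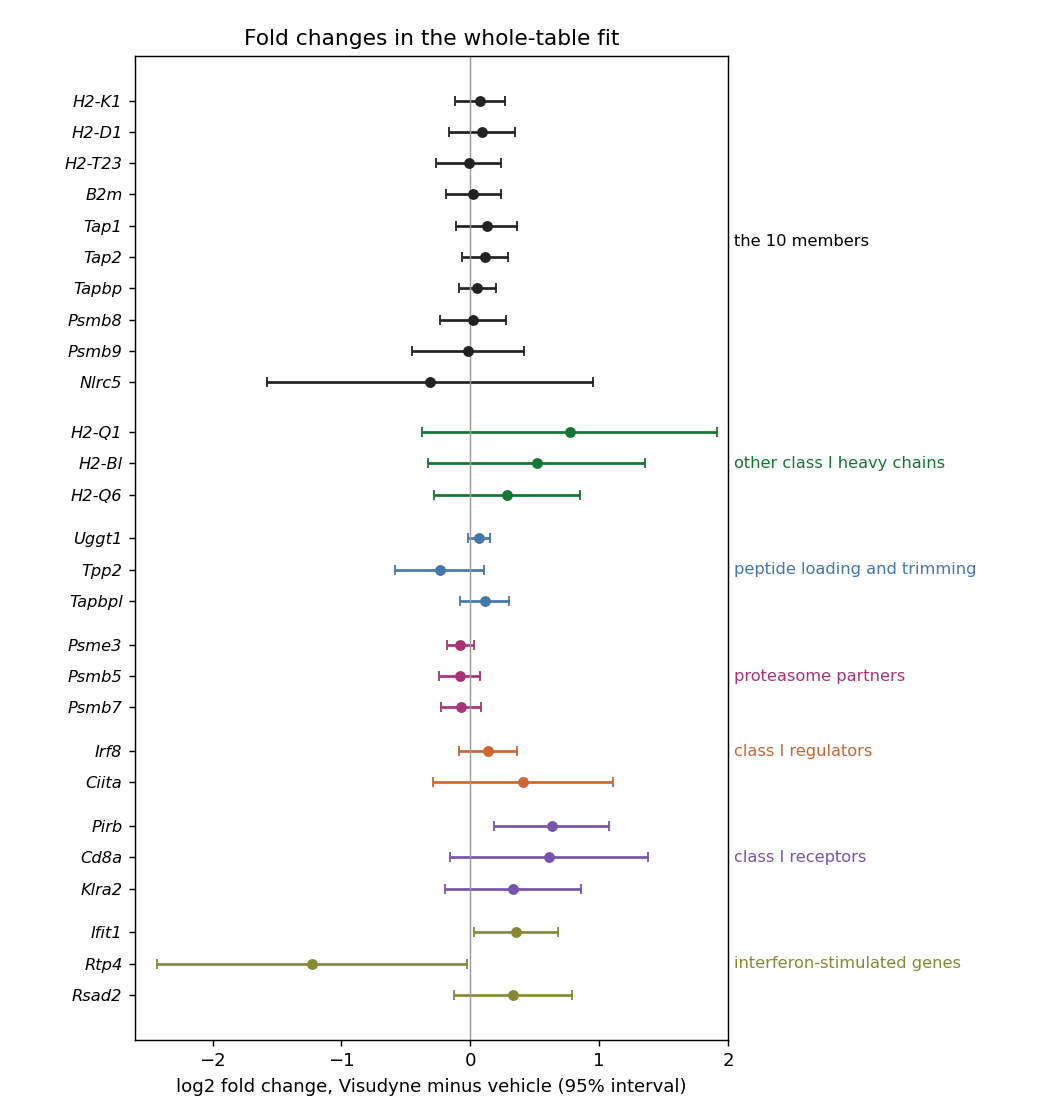
Log2 fold change (Visudyne minus vehicle, x axis) with its 95% interval for the 10 members and for 2 or 3 genes of small p in each of 6 related lists. The intervals of all 10 members include 0, and the widest member interval is that of Nlrc5; those of Pirb, Ifit1 and Rtp4 exclude 0 before adjustment.

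Several members varied together from sample to sample. Of 45 pairs of members, 44 had a positive correlation of log2 CPM over the 10 samples, with a median Pearson r of 0.428. Over all pairs of the 19093 tested genes 49.9% were positive and the median r was -0.002. Over pairs of the 12980 genes with a mean log2 CPM of at least 1, 54.4% were positive with a median of 0.066. H2-K1 and Tapbp were closest, with r = 0.929 (permutation p = 1e-05, the smallest that 100000 resamples can give, adjusted over 45 pairs 0.00045) and Spearman rho = 0.964 (permutation p = 6e-05, adjusted 0.0027). Without the 2 samples farthest from the median of H2-K1, r was 0.850, and with group means removed it was 0.923. Within the 5 vehicle samples this pair had r = 0.964, and within the 5 Visudyne samples 0.818. Several other pairs were positive in vehicle but negative in Visudyne samples. Among them were B2m with Tap1 (0.960 and -0.401), with Tap2 (0.710 and -0.831) and with Psmb9 (0.959 and -0.723). B2m with H2-D1 was positive in both groups (0.887 and 0.895). Each such r rests on 5 samples, the pairs were picked after seeing the values, and no difference between the groups was tested.

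H2-K1 and H2-D1 had r = 0.915 (permutation p = 0.00043, adjusted 0.00967) and rho = 0.818 (permutation p = 0.00596, adjusted 0.0894), and r was 0.829 without the 2 farthest samples. These genes share 31-base words, as given above. H2-D1 and B2m, which share no such words, had r = 0.827 (permutation p = 0.0038, adjusted 0.0427), rho = 0.782 (permutation p = 0.0105, adjusted 0.118) and r = 0.790 without the 2 farthest samples. H2-D1 and Tapbp had r = 0.818 (permutation p = 0.00357, adjusted 0.0427), rho = 0.830 (permutation p = 0.00479, adjusted 0.0894) and r = 0.725 without the 2 farthest samples. No other pair passed by r, and by rho only H2-K1 with Tapbp did.

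Tap1 and Psmb9, the pair with the common promoter stretch, had r = 0.569 (permutation p = 0.0865, adjusted 0.243) and rho = 0.479 (permutation p = 0.165, adjusted 0.392). For Nlrc5 and the other 9 members, several of them its known targets, r ran from -0.228 with Tap1 to 0.428 with H2-D1, with a smallest unadjusted permutation p of 0.216. Its counts of 3 to 47 limit how well such a relation can be seen. No batch is labelled, so none of these relations could be recomputed within batches. The mean of the members mostly fell with sample number in both groups, as given below, and these correlations took no account of it.

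**Figure D4:**
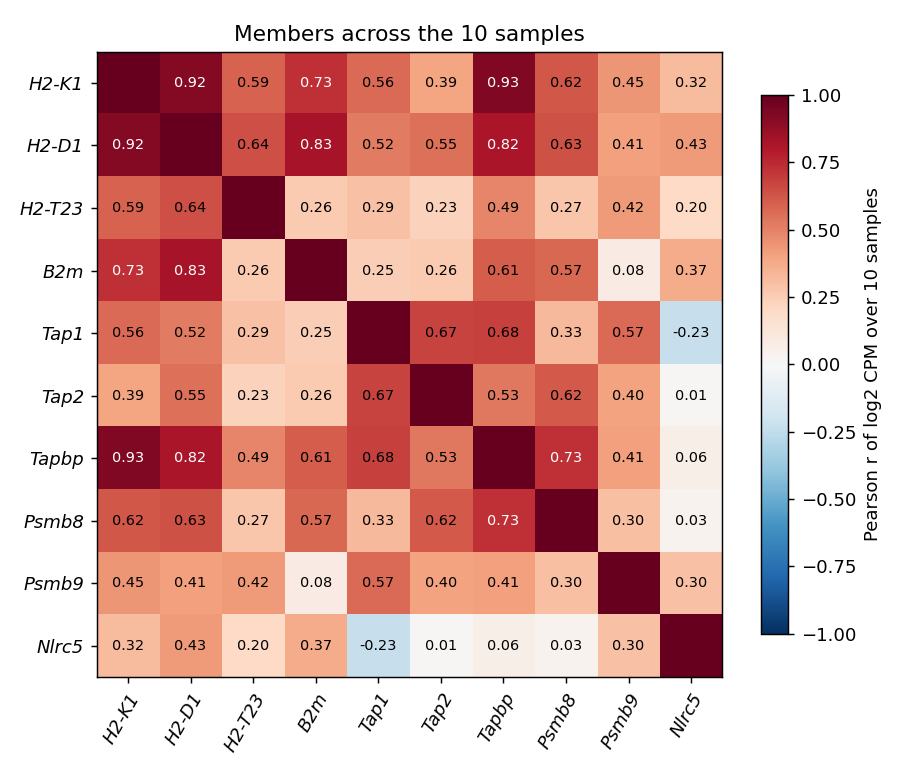
Pearson r of log2 CPM over the 10 samples for each pair of members; red is positive and blue negative. The darkest cells are H2-K1 with Tapbp (0.929) and H2-K1 with H2-D1 (0.915), and Tap1 with Nlrc5 (-0.228) is the negative pair.

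As the mean of standardized log2 CPM over the members, vehicle 1 ranked first of the 10 samples and vehicle 4 second, while vehicle 13 and vehicle 10 ranked last. The 5 Visudyne samples filled ranks 3 to 7, in the order of their sample numbers, from 0.475 in Visudyne 3 to -0.253 in Visudyne 15. The vehicle samples mostly fell in that order too, at 1.11, 0.594, -0.297, -1.2 and -1.14 in vehicle 1, 4, 7, 10 and 13. The labels do not say what the numbers stand for. All 10 members were above their 10-sample median in vehicle 1, and 1 of 10 in vehicle 10 and in vehicle 13. The 10 genes most like this mean, among 12973 others with a mean log2 CPM of at least 1, were Aif1 (r = 0.969), Vwa1, Fam234a, Cnn2, Vtn, Cd151, Irgm1, Unc93b1, Pld4 and Cdh5 (r = 0.919), given as a description over 10 samples. Aif1 and Pld4 are expressed by microglia, Cdh5 by endothelium and Vtn by pericytes.

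Marker sums of several cell types varied over the same samples. The summed CPM of 10 brain endothelial markers was 210, 202, 192, 167 and 169 in vehicle 1, 4, 7, 10 and 13 and 205, 198, 186, 168 and 171 in Visudyne 3, 6, 9, 12 and 15. Samples with high H2-K1 were thus mostly those with high endothelial markers, except Visudyne 12. The 12 microglia markers summed to 332, 297, 299, 289 and 269 CPM in the vehicle and 311, 290, 314, 333 and 275 CPM in the Visudyne samples. Vehicle 13 was lowest, and Visudyne 12 and vehicle 1, the 2 samples of highest B2m, were highest. These 2 samples were also highest for 8 astrocyte markers (5182 and 5073 CPM) and 6 oligodendrocyte markers (2421 and 2498 CPM), so this order was not limited to microglia. Vehicle 1 was highest for the neuron markers too, at 3687 CPM.

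Neither sum separated the groups: 6 of 10 endothelial and 9 of 12 microglia markers had positive fold changes, with medians of 0.02 and 0.04, and none was called. Over all tested genes 51.1% were positive, 1.14% were higher at an unadjusted p under 0.05 in edgeR, and 0.021% were called. In the endothelial list Ly6a was at 0 in at least 1 sample, while no microglia marker was. Meningeal and perivascular fibroblast markers had positive log2 fold changes in 12 of 12 cases (median 0.45), 7 of them at an unadjusted p under 0.05. Of these markers 1, the collagen gene Col1a1, was called. They summed to 211 to 562 CPM without and 360 to 664 CPM with Visudyne. In the vehicle samples 1, 4, 7, 10 and 13 the fibroblast sum was 562, 509, 295, 357 and 211 CPM, so vehicle 1 and 4 were high here as well. Of 12 markers of border macrophages and monocytes, 11 were positive (median 0.50), 5 at an unadjusted p under 0.05 and none called. They summed to 22.99, 20.6, 13.1, 13.2 and 10.8 CPM in vehicle 1, 4, 7, 10 and 13 and to 27.7, 27.5, 22.1, 21.9 and 25.2 CPM in Visudyne 3, 6, 9, 12 and 15, with vehicle 1 inside the Visudyne range. The part of these cell types in the spread of the class I genes was not tested. In whole tissue, fewer cells of a type and less RNA per cell cannot be told apart.

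**Figure D5:**
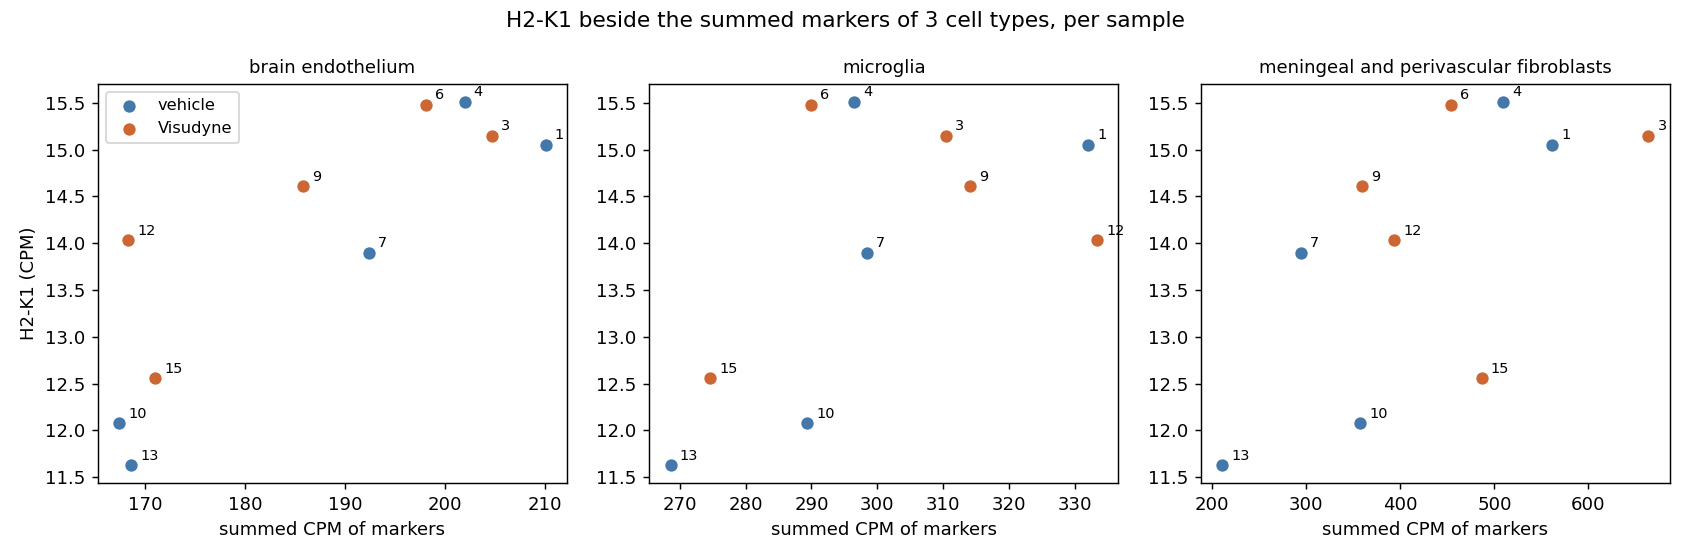
H2-K1 (CPM, y axis, not from 0) against the summed CPM of endothelial, microglia and fibroblast markers (x axes) in the 10 numbered samples. Vehicle 10 and 13 are low in H2-K1 and in endothelial markers, at 167 and 169 CPM, and vehicle 1 and 4 are high in both.

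In 6 related lists of the pathway no gene was called by edgeR. At an unadjusted p under 0.05 there was 1 class I receptor (higher) and 2 interferon-stimulated genes (1 higher and 1 lower), against 1.14% of all genes higher and 0.56% lower. Among 16 tested heavy chains outside the set, 8 were positive and the median log2 fold change was 0.02. The abundant H2-T22, a ligand of gamma delta T cells, measured 12.1 ± 0.870 and 12.04 ± 0.611 CPM (-0.01, SE 0.06). The 3 of smallest p rest on few counts: H2-Q1 (0.77, SE 0.53, 8 to 76 counts), H2-Bl (0.52, SE 0.39, 4 to 15 counts) and H2-Q6 (0.29, SE 0.26, 38 to 124 counts).

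Of 10 chaperones and peptidases that load or trim class I peptides, 6 were positive (median 0.01). Smallest in p were the glucosyltransferase Uggt1 (0.06, SE 0.04), the cytosolic peptidase Tpp2 (-0.24, SE 0.16) and the tapasin relative Tapbpl (0.11, SE 0.09). Of the 10 proteasome partners 3 were positive (median -0.02). Smallest in p were the activator Psme3 (-0.08, SE 0.05) and the constitutive subunits Psmb5 (-0.08, SE 0.07) and Psmb7 (-0.07, SE 0.07).

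Of 19 tested regulators 13 were positive (median 0.03). Irf8, a myeloid interferon regulatory factor, had 0.14 (SE 0.10) and the class II transactivator Ciita 0.41 (SE 0.32). Ifng and Ifnb1, which encode interferons, have no entry in the counts table used here. Among 19 tested interferon-stimulated genes 10 were positive (median 0.04). Ifit1, an RNA-binding antiviral effector, measured 1.86 ± 0.234 and 2.39 ± 0.423 CPM (0.36, SE 0.15) with 3 Visudyne samples over the vehicle maximum. Rsad2 had 0.33 (SE 0.21), and Rtp4, with 0 to 17 counts, -1.23 (SE 0.55).

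The list of 10 class I receptor genes holds receptors that read class I and 2 signalling adaptors, Cd247 and Tyrobp. Of the 10, 6 passed the filter on low counts, and 5 of these were positive (median 0.30). The adaptors, both among the 6, had 0.27 (Cd247) and -0.35 (Tyrobp). Pirb, an inhibitory class I receptor of myeloid cells and neurons, measured 0.463, 0.541, 0.536, 0.455 and 0.634 CPM in vehicle 1, 4, 7, 10 and 13 and 0.639, 0.962, 0.726, 0.685 and 1.06 CPM in Visudyne 3, 6, 9, 12 and 15. The groups did not overlap, though Visudyne 3 and vehicle 13 nearly met; 0.319% of all genes were separated in this direction. The log2 fold change was 0.63 (SE 0.20, unadjusted p = 0.0094), and it did not pass over all genes (edgeR adjusted p = 0.9999). At 23 to 69 counts, and with near-identical paired receptor genes of the same family, its value is uncertain. Cd8a, the class I coreceptor of T cells, had 0.61 (SE 0.35) on 9 to 35 counts, and Klra2, an NK cell receptor of the Ly49 family, 0.33 (SE 0.24). Cd8b1, Klrd1 and Klrc1 were at 0 in at least 1 sample.

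Class II values stood beside these in the same samples: Cd74, the invariant chain, averaged 1.55 ± 1.08 CPM without and 4.07 ± 0.743 CPM with Visudyne (a log2 difference of 1.39, SE 0.38; adjusted p = 0.9999 in edgeR). All 5 Visudyne samples (3.35 to 5.10 CPM) lay above all vehicle samples (0.5385 to 3.10 CPM), as 0.319% of all genes did. The difference between the class I and class II changes was not tested.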

How the data were processed

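Total RNA of hippocampus was made into stranded total RNA libraries, per the labels' protocols. Estimated counts per gene were deposited. The submitters' processing notes name Salmon, FastQC and mm10; for versions and annotation, nothing is stated in the sources used here. The values are whole numbers, so rounding changed none, and all 10 columns were used. Symbols matched 28564 of 28871 identifiers; the others held 0.134% of counts. All 45 pairs of libraries differed beyond counting error (chi-square over its degrees of freedom at least 8.70).

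The test was edgeR 4.0.16 (R 4.3.3), the quasi-likelihood F-test, with its default filter, TMM factors and group as its only term, and p-values were adjusted after Benjamini and Hochberg over all 19093 tested genes (threshold 0.05); it was tested on simulated data. SEs and 95% intervals came from its F statistics. Correlations used log2 CPM with a prior count of 2. Words of 31 bases were compared over GENCODE M21 transcripts, and exon lengths came from the same release. Alternatives were other normalizations and filters, DESeq2 1.42.0, limma voom 3.58.1, the sample number as covariate, a fit without mitochondrial genes, summed heavy chains, leaving out each sample and, chosen after seeing the data, neighbouring sample numbers as a block. All 10 members were named; of each related list, the 3 genes of smallest p, of which 1 is not reported here. H2-T22, Psmb10, Cd74 and the interferon genes were added for their roles, with their values known. The members and lists were chosen with earlier results of these data known.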

Additional observations from a re-analysis of the deposited data

Results flagged for a closer look

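Among the 20 sets of 5 samples (10 members in each group), 1 held a sample far from the others. Tap2 in vehicle 1, at 6.25 CPM, stood apart from the other 4 vehicle samples by 0.740 of the group's range, where 0.71 is the limit; chance gives this in about 1 of 20 such sets. Vehicle 1 was also the highest vehicle sample for H2-D1, B2m, Tap1, Psmb8 and Psmb9.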

How the results depend on the processing

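Under 20 alternatives no member was called in any of 198 refitted values (lowest adjusted p 0.911), and 181 kept their direction. Reversals occurred in 4 members whose fold changes were near 0: with the sample number as a covariate H2-T23 had 0.0365 and Psmb9 0.0428, and the summed heavy chains, which replace H2-T23, had 0.0572. Leaving out 1 sample at a time, H2-T23 ran from -0.0713 to 0.0786, Psmb9 from -0.0771 to 0.0869, Psmb8 from -0.0223 to 0.0776 and B2m from -0.0186 to 0.0894. Among 20 other genes refitted, Psmb10 had 0.0147 with the sample number and -0.0652 to 0.0244 leaving 1 out, and Cd74 passed with the sample number (1.82, adjusted p = 0.0398).

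Over all genes 4 were higher and 0 lower. The count of higher genes was 18 with DESeq2, 19 with the sample number, 2 with upper-quartile factors and 2 without mitochondrial genes. Leaving out 1 sample it was 0 to 4 (0 without vehicle 7, Visudyne 3 or Visudyne 6, and 1 without vehicle 10 or 13 or Visudyne 9, 12 or 15), and that of lower genes 0 to 1 (1 without vehicle 1). The cause was not tested. Psmb9 and Nlrc5 fell under the filter of 1 CPM in 5 samples and have no value there. Depth limits genes of few counts, such as Psmb9 (27 to 52) and Pirb (23 to 69). No paired analysis was possible because the groups share no replicate number, and the labels do not link their numbers. The numbers do alternate (1 and 3, 4 and 6, 7 and 9, 10 and 12, 13 and 15). With such neighbours taken as a block, a fit chosen after seeing the data, 9 genes were higher and 1 lower, no member was called and none changed direction, and Cd74 (1.57, adjusted p = 0.296) and Pirb (0.62, adjusted p = 0.824) were not called.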
